A study of Homo sapiens with 6 samples.

Results

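The genes described here are the components of the oxygen sensing pathway that controls the hypoxia-inducible factors (HIFs). They were chosen by name as 10 genes of the 57820 in the count table: the HIF alpha subunits HIF1A, EPAS1 and HIF3A, their partners ARNT and ARNT2, the prolyl hydroxylases EGLN1, EGLN2 and EGLN3, the asparaginyl hydroxylase HIF1AN, and VHL. All 10 were matched to an Ensembl gene and all 10 passed the filter on low counts, which left 17803 genes. Bulk RNA was sequenced from motor neurons made from H9, an established human embryonic stem cell line with the genotype labelled WT. In the 3 libraries of the simulated microgravity group (SMG) the cells had been on a 2D clinostat, which turns a culture so that gravity has no fixed direction for the cells, and in the 3 libraries of the normal gravity group (NG) they had not. Both groups came from motor neuron progenitors differentiated in 0.01 µM retinoic acid and 0.1 µM SAG, a Hedgehog pathway agonist. The comparison of SMG with NG asks how the level of each gene differs between the conditions. Whether the 3 libraries of a group came from 3 cultures is not stated in the labels. The p-values therefore cover only how far the libraries differed, which could be technical variation, and all cells are of 1 line.

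HIFs are pairs of an alpha and a beta subunit that bind DNA and switch on genes for life at low oxygen. When oxygen is present, prolyl hydroxylases (the EGLN enzymes) mark the alpha subunit, VHL recognises the mark, and the subunit is destroyed, while HIF1AN blocks its contact with coactivators. The main control of HIF1A is thus on the protein, whereas EGLN1 and EGLN3 are themselves transcribed in response to HIF and form a negative feedback loop. RNA levels alone were measured here. In neurons the partner ARNT2 is expressed beside the more widespread ARNT.

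Total counts per library ranged from 16329907 to 22685870. Over all tested genes, 17.3% rose in SMG and 18.5% fell in the test described below. Motor neuron markers were present in both groups: of 11 tested, 5 rose and 2 fell in SMG, and their summed level was 3023 to 3089 CPM (counts scaled to a common library total) in SMG libraries and 3099 to 3171 CPM in NG libraries. The risers of largest change were SLC18A3, the vesicular acetylcholine transporter (log2 fold change ± SE 0.66 ± 0.05), and the transcription factors MNX1 (0.24 ± 0.05), LHX3 (0.23 ± 0.07) and ISL1 (0.22 ± 0.04). The 2 markers that fell were ELAVL4 (-0.17 ± 0.03) and STMN2 (-0.12 ± 0.03). STMN2 was the most abundant of the list, at a mean of 1856 CPM in SMG and 2012 CPM in NG. Markers of neural progenitors and cycling cells were also abundant, at a summed 3321 to 3477 CPM in SMG and 3447 to 3710 CPM in NG, with 4 of 9 lower in SMG and 0 higher. Those that fell were TOP2A (-0.38 ± 0.03) and CCNB1 (-0.35 ± 0.04), which dividing cells express, and the progenitor transcription factors OLIG2 (-0.22 ± 0.04) and PAX6 (-0.20 ± 0.05). Of 9 tested genes on a list for RNA quality and handling, 4 rose (2 without NG replicate 1, NG replicate 2 or SMG replicate 2) and 2 fell. The immediate early gene FOS averaged 1.67 ± 0.07 CPM in SMG and 13.4 ± 0.71 CPM in NG (log2 fold change -3.00 ± 0.12), and EGR1, another, 3.17 ± 0.06 CPM in SMG and 11.4 ± 0.90 CPM in NG (-1.85 ± 0.11; SD, n = 3 each). Both falls were larger in size than those of EGLN3 (-1.56) and EGLN1 (-0.52) described below. Other genes of the list did not pass: the immediate early gene IER2 (-0.03 ± 0.06), DNAJB1 (0.01 ± 0.04) and MT-ND4 (0.23 ± 0.14). The mitochondrial transcript MT-CYB rose by 0.58 ± 0.14 (edgeR adjusted p = 0.0411) and JUN, also an immediate early gene, by 0.32 ± 0.05. The part of these shifts in the results below was not tested, and in bulk RNA fewer cells of a type and less RNA per cell cannot be told apart.

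The RNAs for EPAS1, EGLN3 and EGLN1 fell in SMG, those for ARNT2 and EGLN2 rose by small amounts, and those for HIF1A, HIF3A, ARNT, HIF1AN and VHL did not pass the test. In edgeR's quasi-likelihood test, with Benjamini-Hochberg adjustment over all 17803 genes and a threshold of 0.05, 2 members were higher, where 17.3% of all tested genes were, and 3 were lower, where 18.5% were. Together 5 of 10 were called, against 35.8% of all tested genes. The EPAS1 call rests on few reads and on a filter that it met only through NG, where it was higher. With a correction for transcript length and GC content the calls for ARNT2 and EGLN2 were lost, and HIF1A and HIF1AN passed. The libraries of SMG and NG did not overlap for 6 members, where 46.3% of all tested genes did not overlap. The number of members called was thus near the background, and the results lie in the size and direction of single genes. The median log2 fold change (SMG minus NG) of the members was -0.04, against -0.0002 over all genes tested.

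**Figure D1:**
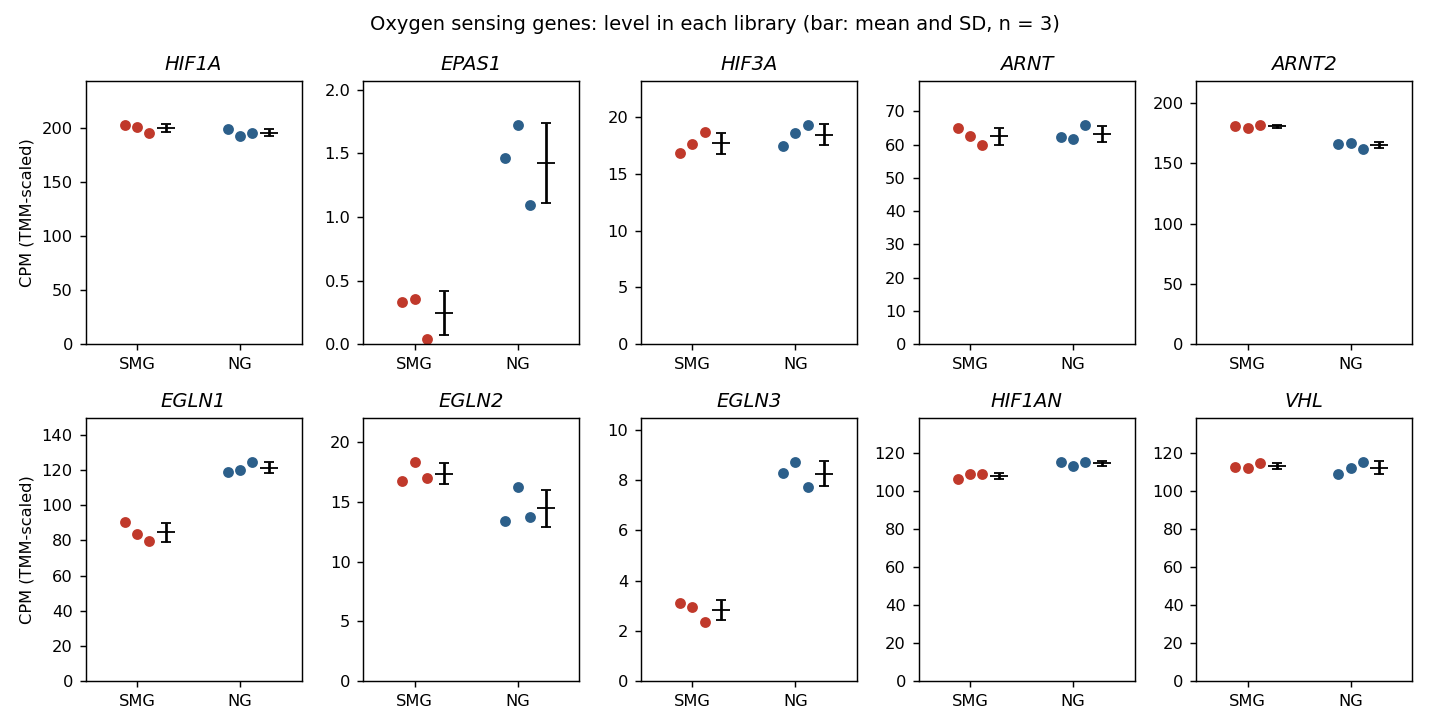
Level of each of the 10 genes in every library, in TMM-scaled CPM on axes that start at 0, with SMG on the left and NG on the right of each panel and a bar for mean and SD (n = 3 each). EPAS1, EGLN1 and EGLN3 lie lower in all 3 SMG libraries, while HIF1A, HIF3A, ARNT and VHL overlap between the groups.

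Among the alpha subunits, HIF1A (ENSG00000100644), the subunit found in nearly all cells, had 203, 202 and 196 CPM in the SMG libraries and 199, 193 and 196 CPM in the NG libraries. The groups overlapped. The log2 fold change was 0.03 ± 0.03 (SE), with a 95% confidence interval from -0.04 to 0.10 and an edgeR adjusted p of 0.512. After correction of every library for a trend with the length and GC content of transcripts, HIF1A stood at 0.15 ± 0.03 and passed (edgeR adjusted p = 2.74e-04), so the call for HIF1A depends on that step.

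EPAS1 (ENSG00000116016) encodes the HIF-2 alpha subunit, best known from endothelial cells, kidney and lung. It had 0.330, 0.359 and 0.0438 CPM in SMG and 1.46, 1.72 and 1.10 CPM in NG. These levels rest on few reads, with counts of 7, 8 and 1 in SMG and 31, 28 and 18 in NG. Every SMG library lay below every NG library. EPAS1 fell by 2.54 on the log2 scale (SE 0.38, 95% confidence interval from -3.31 to -1.76, edgeR adjusted p = 6.18e-06). It passed the filter on low counts only through the NG libraries, where it was higher, so this p-value is not independent of the filter. Without SMG replicate 3, whose count was 1, the log2 fold change was -2.03 (edgeR adjusted p = 1.71e-04). DESeq2 gave -2.56 with an unadjusted p of 3.42e-06 and no adjusted p, since its filter on low counts left the gene out.

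Endothelial and mural cell markers were measured beside EPAS1 because those cells express it strongly. Of 11 listed markers 8 were tested, and KDR, TIE1 and PDGFRB fell while 0 rose, where 18.5% of all tested genes fell. KDR averaged under 1 CPM and is named because the count is small. Of these calls 0 were left with DESeq2 or without NG replicate 1, and 1 without NG replicate 2 or without SMG replicate 1. Their summed level was 14.3 to 16.6 CPM in SMG and 16.4 to 19.8 CPM in NG. The endothelial transcription factor ERG was at 0 in every library, and CDH5, the cadherin of endothelial junctions, averaged 0.0760 ± 0.0280 CPM in SMG and 0.0769 ± 0.0397 CPM in NG (SD, n = 3 each). The part of such cells in the fall of EPAS1 was not tested.

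HIF3A (ENSG00000124440), whose protein forms can oppose the other alpha subunits, had 16.9, 17.6 and 18.7 CPM in SMG and 17.5, 18.6 and 19.3 CPM in NG. The groups overlapped, and the log2 fold change of -0.06 ± 0.07 did not pass (95% confidence interval from -0.20 to 0.09, edgeR adjusted p = 0.584).

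Of the beta subunits, ARNT (ENSG00000143437), the general partner of bHLH-PAS factors, had 64.8, 62.7 and 59.8 CPM in SMG and 62.2, 61.5 and 65.9 CPM in NG. These overlapped, at -0.02 ± 0.05 (95% confidence interval from -0.11 to 0.08, edgeR adjusted p = 0.805). ARNT2 (ENSG00000172379), its close relative in the nervous system, had 181, 180 and 182 CPM in SMG and 166, 167 and 162 CPM in NG. All 3 SMG libraries lay above all NG libraries, and ARNT2 rose by 0.13 ± 0.03 (edgeR adjusted p = 0.00279), a 1.10-fold change. With the trend of length and GC content removed it stood at 0.06 ± 0.03 and did not pass (edgeR adjusted p = 0.100).

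The 3 prolyl hydroxylases moved in different directions. EGLN1 (ENSG00000135766), the chief HIF prolyl hydroxylase at normal oxygen, had 90.5, 83.7 and 79.7 CPM in SMG, against 119, 120 and 125 CPM in NG. The gap between the groups was wider than the spread within either. EGLN1 fell by 0.52 on the log2 scale (SE 0.04, 95% confidence interval from -0.61 to -0.44, edgeR adjusted p = 1.43e-10). Among 13837 genes with a mean of at least 2 CPM, 221 had a lower log2 fold change than EGLN1.

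EGLN3 (ENSG00000129521), the family member whose RNA answers most strongly to low oxygen in many cell types, had 3.12, 2.96 and 2.37 CPM in SMG and 8.30, 8.75 and 7.74 CPM in NG. The counts behind these were 66, 66 and 54 in SMG and 176, 142 and 127 in NG. No SMG library came near the NG range, and EGLN3 fell by 1.56 on the log2 scale (SE 0.12, 95% confidence interval from -1.81 to -1.30, edgeR adjusted p = 1.19e-10), to 0.340 of its NG level. Of the 13837 genes with a mean of at least 2 CPM, 14 had a lower log2 fold change. EGLN1 and EGLN3 kept their fall in all 18 alternative analyses, from -0.57 to -0.48 and from -1.63 to -1.44.

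EGLN2 (ENSG00000269858), the hydroxylase that is not induced by low oxygen, had 16.7, 18.4 and 17.0 CPM in SMG and 13.4, 16.3 and 13.7 CPM in NG. The groups came close, with NG replicate 2 at 16.3 CPM just below the lowest SMG library. EGLN2 rose by 0.27 ± 0.08 (95% confidence interval from 0.10 to 0.44, edgeR adjusted p = 0.00969). The call was lost with DESeq2 (adjusted p = 0.0514), without NG replicate 1 (0.21, edgeR adjusted p = 0.0834), without SMG replicate 2 (0.23, edgeR adjusted p = 0.0667) and with the length and GC trend removed (0.19, edgeR adjusted p = 0.0620). Its value is uncertain for another reason: 30.6% of its annotated exon bases also belong to the read-through gene RAB4B-EGLN2, which had 3 reads in all 6 libraries together, and the sources used here do not state how shared reads were counted. No other member shared more than 3.31% of its exon bases with any 1 gene.

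HIF1AN (ENSG00000166135), the hydroxylase that acts on an asparagine of the alpha subunit, had 106, 109 and 109 CPM in SMG and 116, 113 and 116 CPM in NG. The libraries did not overlap, but the difference was small, at -0.09 ± 0.04, and missed the threshold (edgeR adjusted p = 0.0650). It passed with the length and GC trend removed, at -0.13 ± 0.03 (edgeR adjusted p = 0.00149). VHL (ENSG00000134086), the substrate receptor of the ligase that marks HIF alpha for destruction, had 113, 112 and 115 CPM in SMG and 109, 112 and 116 CPM in NG. The groups overlapped, at 0.01 ± 0.04 (95% confidence interval from -0.06 to 0.09, edgeR adjusted p = 0.802).

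**Figure D2:**
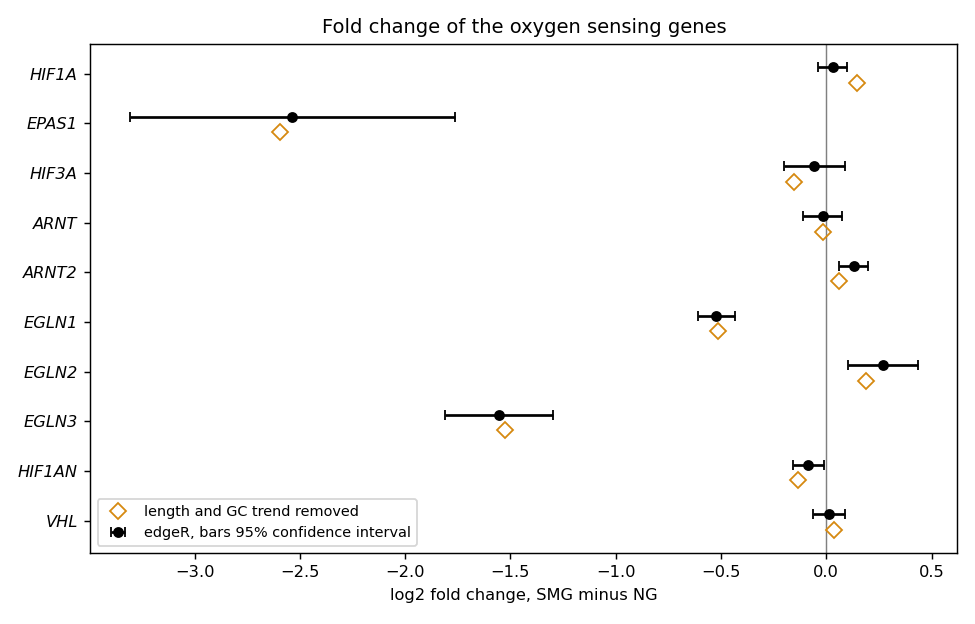
Log2 fold change, SMG minus NG, of the 10 genes. Filled points are edgeR estimates with 95% confidence intervals, and open diamonds the estimates after correction for transcript length and GC content. EPAS1, EGLN3 and EGLN1 stand clear of 0 with both, whereas HIF1A and HIF1AN passed the test only with the correction, and ARNT2 and EGLN2 only without it.

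The promoters of the 3 genes that fell are shown because HIF binds a short core, ACGTG or GCGTG, in the DNA of its targets. They run from 250 bases before to 50 bases after the start site, are taken from RefSeq on build GRCh38.p14, and are written 5′ to 3′ on the gene's strand with the matches to either core, on either strand, in capitals. The deposited counts were made on hg19, and no coordinate of theirs is used. EGLN1 lies at chr1:231422238-231422537 on the minus strand, EPAS1 at chr2:46297157-46297456 on the plus strand and EGLN3 at chr14:33951025-33951324 on the minus strand.
EGLN1: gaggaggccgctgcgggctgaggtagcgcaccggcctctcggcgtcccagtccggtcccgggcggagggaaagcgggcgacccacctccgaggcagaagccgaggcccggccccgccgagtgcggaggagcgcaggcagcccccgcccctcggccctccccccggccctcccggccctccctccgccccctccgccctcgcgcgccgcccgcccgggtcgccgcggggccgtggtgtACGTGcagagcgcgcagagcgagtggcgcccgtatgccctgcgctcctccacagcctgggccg
EPAS1: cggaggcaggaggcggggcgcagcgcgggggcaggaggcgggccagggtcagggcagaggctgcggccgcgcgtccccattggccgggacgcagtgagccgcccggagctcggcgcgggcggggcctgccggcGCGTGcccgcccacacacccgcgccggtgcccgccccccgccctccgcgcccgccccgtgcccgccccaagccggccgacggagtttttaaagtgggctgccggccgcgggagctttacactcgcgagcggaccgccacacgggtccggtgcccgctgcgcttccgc
EGLN3: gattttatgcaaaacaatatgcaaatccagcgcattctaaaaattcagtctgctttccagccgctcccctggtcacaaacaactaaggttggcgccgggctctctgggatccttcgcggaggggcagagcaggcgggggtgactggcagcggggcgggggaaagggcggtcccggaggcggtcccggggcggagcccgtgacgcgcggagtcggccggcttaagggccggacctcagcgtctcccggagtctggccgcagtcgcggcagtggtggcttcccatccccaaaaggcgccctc

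In EGLN1 the core ACGTG starts 13 bases before the start site, and in EPAS1 GCGTG starts 117 bases before it. The EGLN3 window holds neither core. Members that did not fall also hold cores: HIF3A has 3 matches in 1 window, EGLN2 has 2 overlapping matches in 1 window, and HIF1A has 1 match. RefSeq promoters were found for 8 of the 10 genes, in 12 windows, and 5 windows (41.7%), each of a different gene, held a core. Of 35116 promoter windows of all genes, 48.4% did. Of 51 windows of the HIF target genes listed below, 80.4% did. Some genes have more than 1 window, so these are shares of windows and not of genes. The 12 windows were of 8 genes, the 51 of 29 and the 35116 of 27305. The median GC content was 68.0% in the target windows, 67.5% in the 12 windows of the members and 58.7% over all windows. A match is a match of letters, and no binding was measured.

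Levels of different genes were compared per kilobase of the longest annotated transcript, which need not be the form these cells make. HIF1A was the highest of the 10 in both groups, at 50.7 ± 0.935 CPM per kilobase in SMG and 49.6 ± 0.765 in NG (SD, n = 3 each). VHL came next, at 30.3 ± 0.429 in SMG and 30.0 ± 0.919 in NG, and ARNT2 the third, at 27.0 ± 0.176 in SMG and 24.7 ± 0.388 in NG. In NG, EGLN1 stood above ARNT without overlap between libraries, while in SMG the libraries of both overlapped, at 11.9 ± 0.772 CPM per kilobase for EGLN1 and 12.8 ± 0.517 for ARNT. HIF3A and EGLN3 overlapped in NG, at 3.16 ± 0.158 and 2.90 ± 0.177, and did not in SMG, at 3.03 ± 0.155 and 0.988 ± 0.139. All other neighbours in the order were separated in both groups, with EPAS1 lowest, at 0.0473 ± 0.0338 in SMG and 0.276 ± 0.0610 in NG. EPAS1 made up 0.0875% ± 0.0621 of alpha subunit RNA per length in SMG and 0.522% ± 0.118 in NG, so HIF1A, at 94.3% ± 0.319 in SMG and 93.5% ± 0.332 in NG, was nearly all of it.

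**Figure D3:**
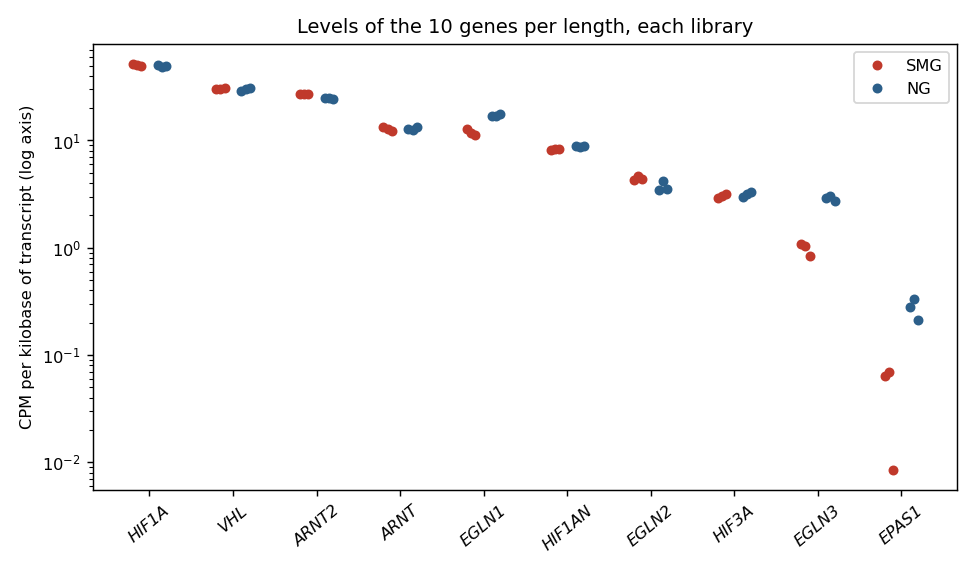
CPM per kilobase of the longest transcript for the 10 genes, ordered by their SMG mean, on a log axis, with 1 point per library (SMG left and red, NG right and blue). HIF1A lies at the top near 50 in both groups. EPAS1 lies at the bottom, and its SMG replicate 3 rests on 1 read.

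The mixture of prolyl hydroxylase RNAs differed between the groups. Summed per length, the 3 genes reached 18.1, 17.5 and 16.4 CPM per kilobase in SMG and 23.1, 24.2 and 23.8 in NG, so the SMG mean was 73.2% of the NG mean. EGLN3 contributed 5.67% ± 0.536 of the sum in SMG and 12.2% ± 0.715 in NG, EGLN2 25.7% ± 1.78 in SMG and 15.6% ± 1.41 in NG, and EGLN1 68.6% ± 1.58 in SMG and 72.1% ± 1.91 in NG (SD, n = 3 each). The libraries of the groups did not overlap for EGLN2 and EGLN3, and for EGLN1 NG replicate 2 (70.1%) lay within the SMG range. The shares are made from the levels given above, so this separation is not further evidence. The larger EGLN2 share also reflects the falls of EGLN1 and EGLN3, since its own level rose only 1.21-fold and is uncertain, as described above.

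**Figure D4:**
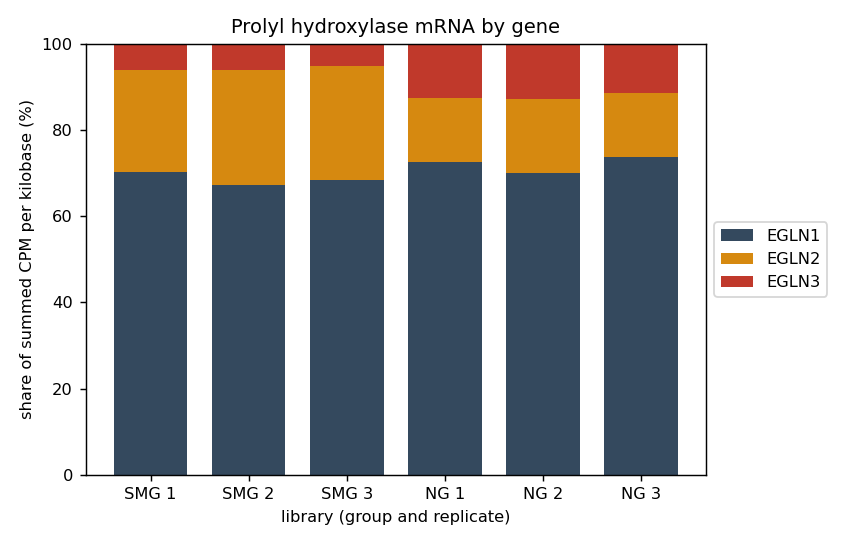
Share of each prolyl hydroxylase gene in their summed CPM per kilobase, as stacked bars for the 3 SMG libraries on the left and the 3 NG libraries on the right. The EGLN3 share is 5.06 to 6.03% in SMG and 11.4 to 12.7% in NG, and the EGLN2 share is larger in every SMG library than in any NG library.

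Ratios within a library compare the members directly. The ratio of EGLN3 to EGLN1 CPM was 0.0344, 0.0354 and 0.0297 in SMG and 0.0696, 0.0727 and 0.0620 in NG, a log2 difference of -1.04 ± 0.10 (SE), so EGLN3 lay further below its NG level than EGLN1 did. The ratio of EGLN2 to EGLN1 was 0.185, 0.220 and 0.213 in SMG and 0.112, 0.135 and 0.110 in NG. The ratio of EGLN1 to its substrate HIF1A was 0.445, 0.415 and 0.406 in SMG and 0.598, 0.623 and 0.638 in NG, and that of VHL to EGLN1 averaged 1.34 ± 0.100 in SMG and 0.924 ± 0.0108 in NG. For ARNT2 over ARNT it was 2.79, 2.87 and 3.05 in SMG and 2.67, 2.72 and 2.46 in NG. The groups did not overlap in any of the 7 ratios computed, and each had an exact two-sided permutation p of 0.1 (0.1 after adjustment over the 7), the smallest that 3 against 3 libraries can give. Every ratio holds EGLN1, EGLN3 or ARNT2, whose own levels did not overlap between the groups, so this separation is not further evidence. The share of ratios without overlap among all genes was not computed.

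Genes around the members were taken from lists of the pathway. The background for the calls in each list is that 17.3% of all tested genes rose and 18.5% fell. VHL acts within a ubiquitin ligase built on CUL2, with the adaptors ELOB and ELOC and the RING protein RBX1. Of these 4, 2 fell slightly and 0 rose: CUL2 averaged 73.3 ± 0.715 CPM in SMG and 80.0 ± 2.21 CPM in NG (log2 fold change -0.13 ± 0.04, edgeR adjusted p = 0.0177), and ELOB 57.7 ± 2.65 CPM in SMG and 63.1 ± 3.92 CPM in NG (-0.13 ± 0.05, edgeR adjusted p = 0.0445). Their median was -0.13. Neither call held with DESeq2, without a filter, or without NG replicate 1, SMG replicate 1 or SMG replicate 3.

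Of 5 coactivator genes, 3 rose (2 with DESeq2, or without NG replicate 1, NG replicate 2, SMG replicate 2 or SMG replicate 3) and 1 fell, with a median of 0.11. The histone acetyltransferases that HIF1AN keeps away from HIF alpha rose. CREBBP averaged 255 ± 1.35 CPM in SMG and 186 ± 11.3 CPM in NG (log2 fold change 0.45 ± 0.04), and its relative EP300 217 ± 4.82 CPM in SMG and 180 ± 5.23 CPM in NG (0.27 ± 0.03). NCOA1 was the closest of these calls to the threshold, at 0.11 ± 0.04 (edgeR adjusted p = 0.0366), and the Mediator kinase CDK8 fell (-0.24 ± 0.05).

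Regulators of the stability and translation of HIF1A went both ways, with 7 higher, 7 lower and a median of -0.01 among 19. SIAH2, a ubiquitin ligase for the EGLN enzymes, fell (24.4 ± 0.592 CPM in SMG and 31.8 ± 0.511 CPM in NG, log2 fold change -0.38 ± 0.06), as did RACK1, which can direct HIF1A to destruction without VHL (-0.31 ± 0.03). TSC2, a brake on mTORC1, rose (178 ± 3.16 CPM in SMG and 136 ± 11.5 CPM in NG, 0.39 ± 0.04), and so did WTIP (0.30 ± 0.09), of the family of LIM proteins that bring EGLN enzymes and VHL together. That family was split: AJUBA also rose (0.15 ± 0.05, edgeR adjusted p = 0.0264), while LIMD1 fell (-0.15 ± 0.06, edgeR adjusted p = 0.0450). With the length and GC trend removed, or without SMG replicate 3, 4 of the list were higher.

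Other bHLH-PAS factors compete for ARNT or ARNT2. Of 7 listed, 5 were tested, and NPAS3 rose (38.9 ± 0.815 CPM in SMG and 33.8 ± 0.686 CPM in NG, log2 fold change 0.20 ± 0.05). The dioxin receptor AHR averaged 3.71 ± 0.632 CPM in SMG and 3.58 ± 0.311 CPM in NG, and SIM2 2.41 ± 0.683 CPM in SMG and 2.32 ± 0.186 CPM in NG, and neither passed. Of 4 genes of other oxygen-using regulation, P4HTM, a membrane-bound relative of the EGLN enzymes, rose (0.16 ± 0.05, edgeR adjusted p = 0.0169), though not with DESeq2 or without SMG replicate 3. ADO, an oxygen-dependent thiol dioxygenase, averaged 54.7 ± 0.839 CPM in SMG and 55.3 ± 0.734 CPM in NG and did not pass, nor did its substrate RGS4 (0.19 ± 0.08, edgeR adjusted p = 0.0580).

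Of 35 genes known as HIF targets in other cells, not counting EGLN1 and EGLN3, 33 were tested, and 32 fell and 0 rose, with a median log2 fold change of -0.95. This list was drawn up with the fall of hypoxia genes in these data known, so its direction is not independent evidence. EGLN1 lay in the shallow part of their range, since 24 of the 33 had a lower log2 fold change, and EGLN3 in the deep part, with 8 lower. The 4 largest changes were those of BHLHE40 (-4.18), ADM (-2.50), PLOD2 (-2.13) and PFKFB4 (-2.04). The list holds 4 enzymes that, like the EGLN proteins, hydroxylate or demethylate with oxygen and iron, named here after their values were seen. Of these PLOD2, which acts on lysines of collagen, was the lowest, the collagen prolyl hydroxylases P4HA1 and P4HA2 stood at -1.66 ± 0.05 and -0.99 ± 0.06, and the histone demethylase KDM3A at -0.64 ± 0.03. ANKZF1 did not pass (-0.01 ± 0.05), and CA9 and CA12 were too low to be tested.

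**Figure D5:**
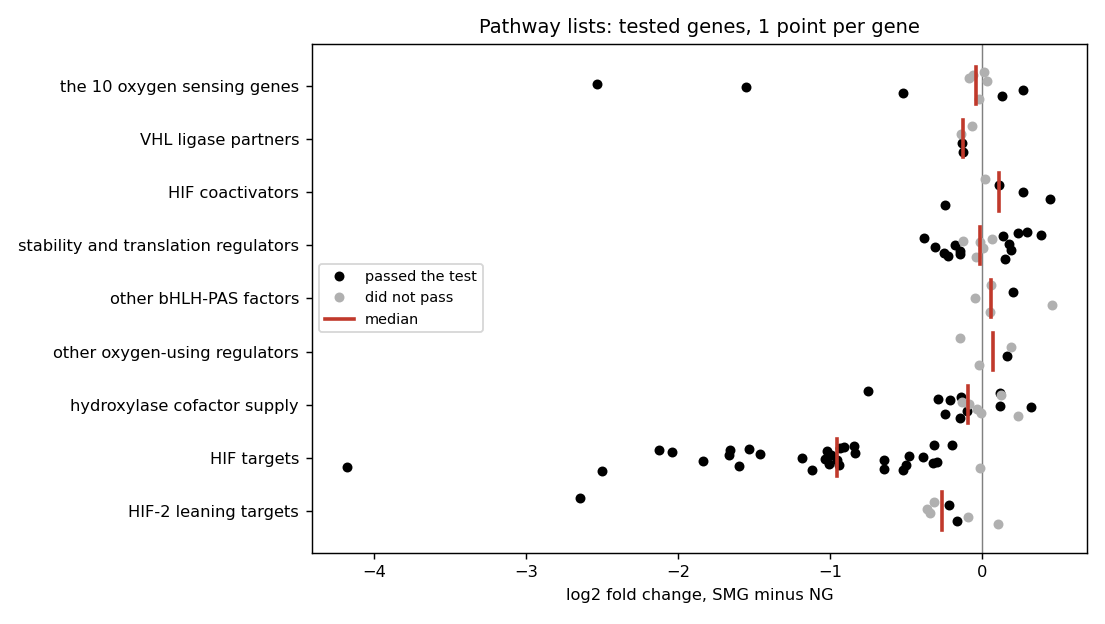
Log2 fold change, SMG minus NG, of every tested gene in the pathway lists, 1 point per gene, black where it passed edgeR's test and grey where it did not, with a red bar at each list's median. The HIF targets lie to the left of 0 with a median of -0.95, and the medians of the VHL ligase partners, coactivators and regulators lie within 0.13 of 0.

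The genes whose pattern over the 6 libraries lay nearest to 3 of the members were found among 10283 genes with a mean of at least 10 CPM, by the Euclidean distance between centred log2 CPM values. Nearest to EGLN3 were FAM162A (distance 0.258), BNIP3 (0.320) and PFKP (0.354), at log2 fold changes of -1.66, -1.60 and -1.34. Among the nearest to EGLN1 were CDKN1A (0.0693) and BNIP3L (0.100), at -0.54 and -0.50. Nearest to HIF1A were DICER1 (0.0211), SUV39H2 (0.0262) and EIF4G3 (0.0265), at 0.03, 0.02 and 0.02, none of which passed. With 2 groups of 3 libraries, this likeness mostly reflects the size of the fold change.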

How the data were processed

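The authors deposited raw counts per Ensembl gene, with a column for each library. The submitters' processing notes name HISAT2, SAMtools, featureCounts, DESeq2 and the build hg19. Tool versions, the annotation, strandedness and the handling of reads shared between genes are not stated there. Per the labels' protocols, libraries were made from 1.3 µg of total RNA with an mRNA kit.

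Symbols came from a table of gene names and from GENCODE 29 (52338 genes in all), which also gave transcript lengths, GC content and exon overlap. Sample groups follow the labels. Genes were filtered with filterByExpr, scaled by TMM and tested with edgeR's quasi-likelihood test (robust estimation), with Benjamini-Hochberg adjustment over all 17803 genes and a threshold of 0.05. Levels are TMM-scaled CPM as mean ± SD (n = 3), and fold changes log2 ± SE. The median SE was 0.0524 for genes of at least 10 CPM. Within a group, chi-square per degree of freedom between libraries ranged from 1.53 to 3.11, above sampling noise. Members and lists were chosen with earlier results of these data known. All members were named, and from each list up to 4 that passed with a mean of at least 1 CPM, the largest changes first, or, where fewer than 2 passed, up to 2 of the highest mean. Some genes were named outside this rule, among them KDR, STMN2, ELAVL4, ERG, CDH5, P4HA1 and EPO. One gene near EGLN1 in pattern is not reported here. Lists were not tested as sets. The scripts were tested on simulated counts. Software was edgeR 4.0.16, DESeq2 1.42.0 and limma 3.58.1 in R 4.3.3.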

Additional observations from a re-analysis of the deposited data

How the results depend on the processing

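The 18 alternatives were DESeq2, limma-voom, scaling by library size, by upper quartile or by DESeq2's size factors, no filter, a filter of 1 CPM in 3 libraries, no robust estimation, the replicate number as a block, removal of each library's trend with transcript length and GC content (available for 96.6% of tested genes) with and without that block, protein-coding genes alone, and each library left out in turn. EPAS1, EGLN1 and EGLN3 kept their direction and their call in all of these, except that DESeq2 gave EPAS1 no adjusted p. Of 179 member values, 164 kept direction and call, 7 lost a call, 4 gained one and 4 changed sign. The changes of sign were in genes near 0 that never passed: ARNT at 0.0026 with library size scaling, 0.0141 without NG replicate 3 and 0.0121 without SMG replicate 3, and VHL at -0.0074 without NG replicate 1. With a library left out ARNT ranged from -0.0441 to 0.0141 and VHL from -0.0074 to 0.0387. The number of members higher in SMG was 1 in place of 2 with DESeq2 and with the length and GC trend removed, with or without the block, and 1 to 2 with a library left out. With the trend removed that 1 was HIF1A, and 4 members were lower; the cause was not tested. Libraries of equal replicate number showed little correlation of their deviations from the group means (-0.00406, 0.0178 and -0.0281). SMG replicate 1 with NG replicate 3 gave 0.0451. Single-gene noise can hide a pairing, so this check cannot exclude it. With the replicate block 2 members were higher and 3 lower, with 3077 and 3256 over all genes. The count of VHL ligase partners that fell was 0 or 1 in place of 2 under most alternatives. Depth limits EPAS1, with 16 reads in SMG and 77 in NG, and only its NG libraries met the low-count filter of the main fit.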

Other observations

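HIF1A-AS3 (ENSG00000258667), a non-coding gene that overlaps the HIF1A locus on the opposite strand, had counts of 2, 3 and 4 in SMG and 25, 19 and 20 in NG. Every SMG library lay far below the NG libraries, and the gene fell by 3.07 on the log2 scale (SE 0.39, edgeR adjusted p = 4.06e-07), while HIF1A itself did not pass. HIF1A-AS3 met the filter on low counts only through NG, where it was higher, so its p-value is not independent of that filter. Its exons share no base with those of HIF1A in GENCODE 29, but the sources used here do not state whether counting used strand, so reads from HIF1A introns cannot be told apart from its own. HIF1A-AS1, at the other end of the locus, averaged 0.287 ± 0.0702 CPM in SMG and 0.304 ± 0.111 CPM in NG and was too low to be tested. The near copies VHLL and EGLN1P1 had 6 and 0 reads in all libraries together.

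The EGLN enzymes need iron, ascorbate and oxoglutarate. Of 16 genes that supply or compete with these, 7 fell and 3 rose, with a median log2 fold change of -0.09. Among all tested genes, 18.5% fell and 17.3% rose. The transferrin receptor TFRC, which brings iron into the cell and is itself a known HIF target, averaged 64.3 ± 3.82 CPM in SMG and 108 ± 2.56 CPM in NG (log2 fold change -0.75 ± 0.04, edgeR adjusted p = 6.80e-14). The ferritin light chain FTL fell (-0.24 ± 0.03), as did SDHD, a subunit of succinate dehydrogenase (-0.29 ± 0.07), and OGDH, the oxoglutarate dehydrogenase, rose (0.32 ± 0.05). The ferritin heavy chain FTH1 lay in the other direction, at 0.24 ± 0.10, and did not pass (edgeR adjusted p = 0.138). Of the other succinate dehydrogenase subunits, SDHC fell (-0.21 ± 0.05), and SDHA and SDHB did not pass. With DESeq2, with library size scaling, with the length and GC trend removed, or without NG replicate 1 or SMG replicate 3, 4 of the 16 were lower, and with DESeq2 or without SMG replicate 3, 1 was higher.

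Of 14 genes reported as leaning towards HIF-2 in some other cells, several of which also answer to HIF-1, 8 were tested, and STC1 (-2.65 ± 0.06), NDNF (-0.21 ± 0.04) and CCND1 (-0.16 ± 0.04) fell. The share of all tested genes that fell was 18.5%. EPO averaged 0.0741 ± 0.0906 CPM in SMG and 0.197 ± 0.119 CPM in NG and was too low to be tested. In the astrocyte and oligodendrocyte lineage list 4 of 9 genes were tested, and SLC1A3 fell (-0.16 ± 0.05; not called with DESeq2 or without NG replicate 1 or SMG replicate 3), with a summed level of 147 to 155 CPM in SMG and 145 to 160 CPM in NG. OLIG1 (0.03 ± 0.06) and MBP (-0.03 ± 0.11) did not pass.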
